A study of Mus musculus with 9 samples.

Results

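Hyaluronan is a long sugar polymer that is spun out through the plasma membrane and forms, with the proteoglycans it binds, the soft pericellular coat of fibroblasts. The genes described here are the hyaluronan synthases Has1, Has2 and Has3, the hyaluronan-binding proteoglycan versican (Vcan), the link protein Hapln1, the cross-linking protein Tnfaip6, the receptor Cd44 and the hyaluronidases Hyal1 and Hyal2. They were chosen by symbol, and each gene is represented by its brightest probe set with 1 gene symbol in the platform annotation. Of the 9 genes listed, 8 had such a probe set, of 19937 genes with one in the whole table, and each of the 8 had exactly 1. Both probe sets that carry the name Hyal1 also carry that of Naa80, so Hyal1 has no value of its own. The genes were chosen with their levels in these arrays known, so their levels and differences are given as a description, without a test.

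RNA came from quiescent MEFs, which are fibroblasts cultured from mouse embryos, of 3 genotypes with 3 Affymetrix arrays each, 9 in all. The genotypes are p27KO (KO), which the labels give as a knockout of p27, p27CK (CK), and wild type (WT). p27 is the cyclin-dependent kinase inhibitor encoded by Cdkn1b. In published work p27CK is a form of p27 that cannot bind cyclins and their kinases, while the labels give only its name. The extraction protocol speaks of wild-type or delta51 mice, and which cells delta51 refers to is not given in the sources used here. All cells, WT included, had been grown with 10% serum and then starved of it for 72 h. The labels do not say whether arrays of 1 genotype came from separate cultures or embryos, so the spread given here may be technical, and genotype and culture cannot be told apart. Cdkn1b read 7.38 ± 0.11 in KO, 11.10 ± 0.09 in CK and 11.46 ± 0.04 in WT (mean log2 value ± SD of 3 arrays), with every KO array below every other array. In tested genes, KO replicate 3 lay more than 0.5 (log2) from the mean of the other KO arrays for 253 genes and WT replicate 3 from the other WT arrays for 134, against 27 to 106 for the other 7 arrays.

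In this system a synthase at the plasma membrane joins UDP-glucuronic acid and UDP-N-acetylglucosamine into hyaluronan. Has2 is the main synthase of mesenchymal cells and of the mouse embryo. Versican binds hyaluronan through its amino-terminal domain, a link protein such as Hapln1 stabilises that bond, and Tnfaip6 moves heavy chains of inter-alpha-inhibitor onto the polymer. Cd44 anchors hyaluronan at the cell surface, and hyaluronidases cut it into fragments.

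Values are log2 expression values made with RMA, so a difference of 1 is a 2-fold difference of the measured signal. The table gives no detection calls. The 40th percentile of gene means, 7.24, is used as a mark of dim signal, and near or below it background compresses differences. Levels of different genes come from different probes and are not compared with each other. In a bulk sample, fewer cells of a type and less RNA per cell cannot be told apart.

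The promoters of Vcan, Cd44, Tnfaip6 and Hapln1 are shown because the first 3 genes were lowest in KO, while Hapln1, which adjoins Vcan on chromosome 13, was lowest in CK. Each sequence is the 250 bases before the start site listed by RefSeq for build GRCm38.p6, written 5' to 3' along the gene. The windows are chr13:89742513-89742762 (minus strand), chr2:102901666-102901915 (minus strand), chr2:52037863-52038112 (plus strand) and chr13:89540386-89540635 (plus strand). Some annotated Vcan and Hapln1 transcripts begin farther upstream. Capitals mark matches, on either strand, to any of 9 short motifs. The promoter motifs searched were the TATA box, written TATAAA, the CCAAT box itself, and the GC box, written GGGCGG. The factor motifs were that of AP-1, written TGANTCA, the core of the cyclic AMP response element, written TGACGT, and the E-box, written CACGTG. The others were that of TEAD factors, written GGAATG, that of TCF factors, written CTTTGA, and the core of the E2F motif, written TTCCCGC.
Vcan: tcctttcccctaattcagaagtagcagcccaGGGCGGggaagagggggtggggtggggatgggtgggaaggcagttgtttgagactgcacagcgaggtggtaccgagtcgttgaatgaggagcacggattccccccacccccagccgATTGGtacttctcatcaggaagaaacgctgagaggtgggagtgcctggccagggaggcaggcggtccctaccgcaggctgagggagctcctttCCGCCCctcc
Cd44: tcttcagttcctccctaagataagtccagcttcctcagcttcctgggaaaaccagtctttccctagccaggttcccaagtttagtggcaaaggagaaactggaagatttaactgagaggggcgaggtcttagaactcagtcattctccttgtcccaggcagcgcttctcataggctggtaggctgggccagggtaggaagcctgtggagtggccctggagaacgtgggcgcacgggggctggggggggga
Tnfaip6: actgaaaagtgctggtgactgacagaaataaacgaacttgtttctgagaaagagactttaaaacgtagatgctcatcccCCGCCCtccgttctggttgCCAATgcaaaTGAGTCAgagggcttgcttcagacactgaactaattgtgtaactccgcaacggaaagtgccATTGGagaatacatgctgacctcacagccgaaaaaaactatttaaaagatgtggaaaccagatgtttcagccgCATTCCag
Hapln1: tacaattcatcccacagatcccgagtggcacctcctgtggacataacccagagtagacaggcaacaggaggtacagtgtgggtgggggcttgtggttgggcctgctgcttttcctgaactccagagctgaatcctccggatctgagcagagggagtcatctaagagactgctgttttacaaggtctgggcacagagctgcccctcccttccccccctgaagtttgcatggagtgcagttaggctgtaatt
In the Vcan window CCAAT and 2 GC boxes matched. In the Tnfaip6 window CCAAT matched at 2 places, and the AP-1 motif, the GC box and the TEAD motif at 1 place each. No motif matched in the Cd44 or the Hapln1 window. Over all 32851 such windows of the table, 33.8% hold the CCAAT box, 32.7% the GC box, 12.6% the TEAD motif and 6.75% the AP-1 motif, so the first 2 are common. The TATA box is held by 12.4%, the TCF motif by 13.8%, the cyclic AMP response core by 6.47%, the E-box by 6.02% and the E2F core by 3.82% of windows. No motif matched in all 3 windows of the genes lowest in KO. Windows for 7 of the 9 listed genes were in the table, which held none for Has2 or Has3.

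Of the synthases, Has2 was lower in both mutants than in WT, and Has1 and Has3 were dim on every array. Has2 read 7.80, 7.67 and 8.13 on the KO arrays, 7.56, 7.38 and 7.43 on the CK arrays, and 9.74, 9.91 and 9.73 on the WT arrays. Every KO and CK array lay below every WT array, with a gap of 1.60 in KO and 2.17 in CK. The log2 difference was -1.92 (SE 0.15) in KO versus WT and -2.33 (SE 0.08) in CK versus WT, or 3.79-fold and 5.04-fold lower. CK was below KO by a smaller amount, with a log2 difference of -0.41 (SE 0.15) and a gap of 0.11 between the arrays. Without KO replicate 3 that difference was -0.28, and the one in KO versus WT was -2.05.

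Has1 averaged 6.89 ± 0.14 in KO, 6.99 ± 0.03 in CK and 6.95 ± 0.13 in WT (mean log2 value ± SD of 3 arrays). Has3 averaged 5.79 ± 0.06 in KO, 5.68 ± 0.06 in CK and 5.70 ± 0.03 in WT. The arrays of the genotypes overlapped for both genes in every comparison, and both lay below the mark of dim signal, so no difference was detectable at this signal. Has2 is thus the one synthase with a level above that mark, and it had its highest level in WT.

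Vcan, which encodes a large chondroitin sulfate proteoglycan of the provisional matrix, was low in KO and high in CK. It read 7.55, 7.17 and 6.99 on the KO arrays, 12.22, 12.04 and 11.68 on the CK arrays, and 10.94, 10.97 and 9.98 on the WT arrays. The order was CK, WT, KO, with no overlap between any 2 genotypes. KO was below WT by a log2 difference of -3.39 (SE 0.37), or 10.5-fold, and reached the level of dim signal, so this fold is that of the measured values. CK was 2.55-fold above WT (1.35, SE 0.36) and 26.7-fold above KO (4.74, SE 0.23).

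WT replicate 3 read 0.98 below the mean of the other WT arrays for Vcan, the widest departure of any single array for this gene. Without it, the difference was 1.02 in CK versus WT and -3.72 in KO versus WT. Without KO replicate 3 the differences were -3.27 in KO versus WT and 4.62 in CK versus KO. The WT arrays still lay between the 2 mutants with or without it.

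Hapln1, the cartilage link protein, which also stabilises versican on hyaluronan, was lower in both mutants. It read 6.19, 6.06 and 6.39 on the KO arrays, 5.88, 5.85 and 5.73 on the CK arrays, and 8.20, 8.03 and 7.07 on the WT arrays. Each mutant array lay below each WT array, and all 6 mutant arrays and WT replicate 3 were under the mark of dim signal. The log2 difference was -1.55 (SE 0.36) in KO versus WT and -1.94 (SE 0.35) in CK versus WT. WT replicate 3 was 1.04 below the other WT arrays, and without it the differences were -1.90 in KO and -2.29 in CK. CK was also below KO (log2 difference -0.39, SE 0.11), both at dim signal. Without KO replicate 3 the Hapln1 differences were -0.30 in CK versus KO and -1.64 in KO versus WT.

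Tnfaip6, whose product TSG-6 cross-links hyaluronan through heavy chains, was lowest in KO. It read 7.07, 7.05 and 6.67 on the KO arrays, 8.27, 8.12 and 8.01 on the CK arrays, and 7.87, 8.08 and 7.87 on the WT arrays. The KO arrays lay below all others, by 0.79 from WT and 0.93 from CK, and all 3 were under the mark of dim signal. The log2 difference was -1.01 (SE 0.15) in KO versus WT and 1.20 (SE 0.15) in CK versus KO. Without KO replicate 3, the lowest KO array, they were -0.88 and 1.07. The CK and WT arrays overlapped, with a log2 difference of 0.19 (SE 0.10).

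Cd44, the main hyaluronan receptor of fibroblasts, had the order CK, WT, KO with narrow spread. It read 8.87, 8.77 and 8.90 on the KO arrays, 10.51, 10.50 and 10.41 on the CK arrays, and 9.99, 9.98 and 9.92 on the WT arrays. No 2 genotypes overlapped, and all values were above the mark of dim signal. KO was 2.17-fold below WT (log2 difference -1.12, SE 0.04). CK was 1.42-fold above WT (0.51, SE 0.04) and 3.08-fold above KO (1.62, SE 0.05). The probe set does not separate the splice forms of Cd44.

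Hyal2, a hyaluronidase held at the cell surface by a lipid anchor, was nearly level. It averaged 8.61 ± 0.07 in KO, 8.57 ± 0.01 in CK and 8.55 ± 0.02 in WT (mean log2 value ± SD of 3 arrays). The KO and CK arrays did not overlap the WT arrays, but the gaps were 0.002 and 0.001, and the largest difference between genotype means was 0.06.

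**Figure D1:**
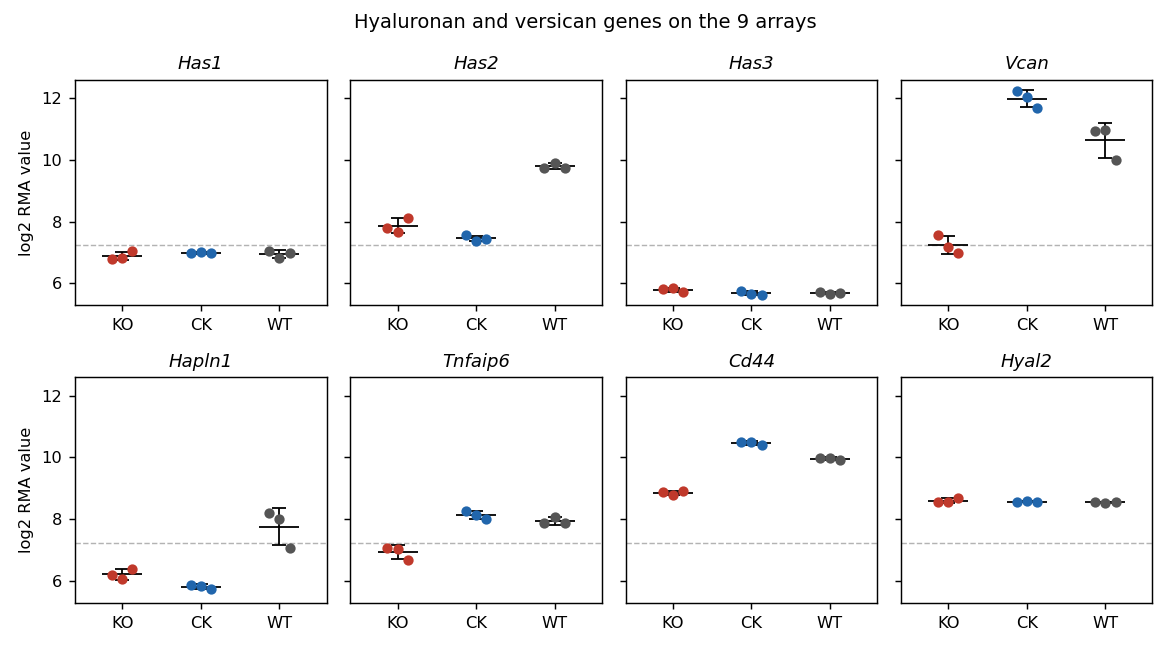
Log2 RMA values of the 8 measured genes in KO, CK and WT cells. Points are arrays, the short line and bars are the mean ± SD of 3 arrays, and the dashed line is the 40th percentile of gene means (7.24). Vcan, Cd44 and Tnfaip6 are lowest in KO, Has2 and Hapln1 are highest in WT, and Has1, Has3 and Hyal2 are nearly level.

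In KO versus WT, 5 of the 8 genes lay lower and 1, Hyal2, higher with no overlap of the arrays, where 43.5% of all genes did not overlap (22.6% higher and 20.8% lower). The median difference of the 8 was -1.06, against 0.006 over all genes, and 5 differed by at least 1 (log2), as 5.81% of all genes did. Without KO replicate 3 it was 4, since Tnfaip6 then differed by -0.88. In CK versus WT, 3 lay higher and 2 lower with no overlap (48.5% of all genes, 23.7% higher and 24.9% lower), and 3 differed by at least 1 (7.29% of all genes). Their median was 0.03, against -0.006 over all genes. In CK versus KO, 3 lay higher and 2 lower with no overlap (48.8% of all genes, 22.9% higher and 25.9% lower), and 3 differed by at least 1 (8.23% of all genes). The median there was 0.03, against -0.01 over all genes. Comparisons with WT share the WT arrays, and the genes were chosen with these values known, so nothing is read from these shares.

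**Figure D2:**
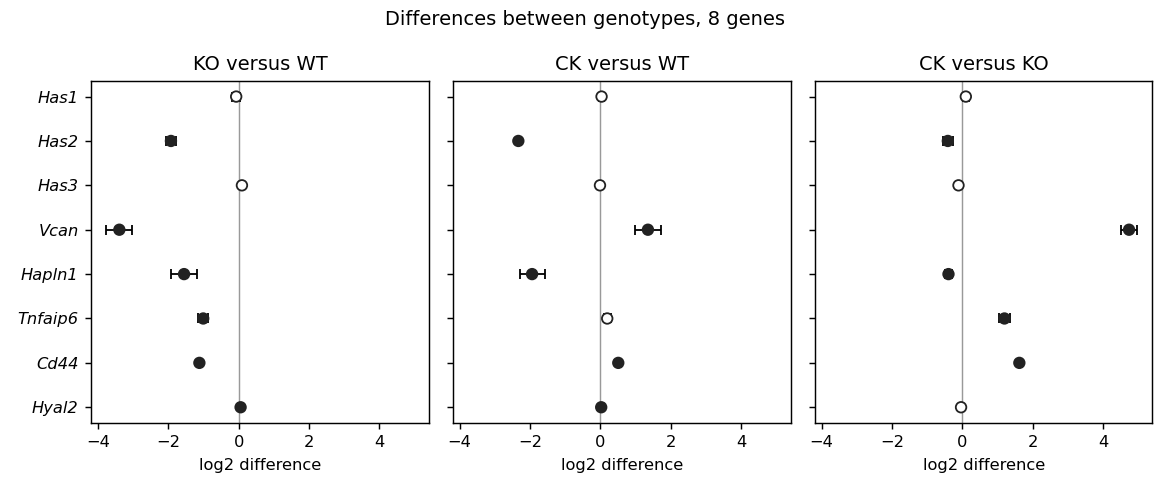
Log2 differences between genotype means for the 8 genes, with bars of ± 1 SE (n = 3 arrays per genotype). Filled points are genes whose arrays did not overlap between the 2 genotypes. In KO versus WT, 5 genes lie left of 0 by 1 or more, while Vcan and Cd44 lie right of 0 in CK versus WT and in CK versus KO.

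The other genes of the pathway were tested with limma over all 11962 genes above the mark of dim signal, with Benjamini-Hochberg adjustment. Of 75 listed genes in 9 groups, 73 had a probe set and 53 were tested. In KO versus WT, 15 rose and 18 fell, or 62.3% of those tested, against 51.2% of all genes tested (26.6% higher and 24.6% lower). In CK versus WT, 18 rose and 18 fell, or 67.9%, against 62.9% of all genes (30.7% higher and 32.1% lower). In CK versus KO, 17 were higher and 19 lower, or 67.9%, against 62.2% (29.5% higher and 32.7% lower). A gene that is high in 1 genotype can pass the filter through it, so these counts are a description. The same shares over all genes are the background for the counts by group below, which come from few genes each.

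Of the 7 genes for hyaluronan precursors, all tested, 2 rose and 1 fell in KO, and 0 rose and 2 fell in CK. Gfpt2, an isoform of the enzyme that commits fructose 6-phosphate to UDP-N-acetylglucosamine, read 8.14, 7.97 and 8.10 in KO, 9.24, 9.24 and 9.31 in CK, and 11.78, 11.85 and 11.71 in WT. Both mutants lay far below WT with no overlap. Gfpt2 fell by 3.71 in KO (SE 0.06, limma adjusted p = 2.06e-11) and fell by 2.52 in CK (limma adjusted p = 2.94e-10). Gfpt1, the other isoform, rose by 0.50 in KO (limma adjusted p = 3.99e-05) and fell by 0.30 in CK (limma adjusted p = 0.00105). Pgm3 rose by 0.26 in KO (limma adjusted p = 0.0158), a call lost without KO replicate 2, WT replicate 2 or WT replicate 3 (adjusted p = 0.0667, 0.0652 and 0.0526). Ugdh, which makes UDP-glucuronic acid, had a difference of -0.002 in KO and -0.07 in CK and was not called (limma adjusted p = 0.984 and 0.338).

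Of the genes for hyaluronan breakdown other than Hyal1 and Hyal2, Cemip and Cemip2 were lower in both mutants. Cemip, a hyaluronan-binding protein needed for depolymerisation by skin fibroblasts, read 9.97, 9.84 and 9.46 in KO, 11.51, 11.20 and 10.56 in CK, and 12.90, 12.85 and 12.86 in WT. No 2 genotypes overlapped. Cemip fell by 3.11 in KO (SE 0.20, limma adjusted p = 4.45e-07) and fell by 1.78 in CK (limma adjusted p = 2.49e-05). Cemip2, a transmembrane protein related to Cemip, fell by 1.55 in KO (limma adjusted p = 1.24e-07) and fell by 0.91 in CK (limma adjusted p = 6.01e-06). Hyal3, next to Hyal2 among the genes measured, rose by 0.68 in CK (limma adjusted p = 4.54e-05) and differed by -0.15 in KO (limma adjusted p = 0.165). Of 5 tested genes, 0 rose and 2 fell in KO, and 1 rose and 2 fell in CK.

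Of the receptors and binders other than Cd44, 6 were tested: 1 rose and 3 fell in KO, and 1 rose and 2 fell in CK. Layn, a transmembrane hyaluronan receptor, fell by 0.80 in KO (limma adjusted p = 7.04e-06) and was 0.95 higher in CK than in KO (limma adjusted p = 1.2e-06). Its difference of 0.15 in CK versus WT was not called (limma adjusted p = 0.0975). Tlr2, an innate immune receptor, fell by 1.12 in KO and fell by 1.20 in CK (limma adjusted p = 4.88e-07 and 2.43e-07). Tlr4 fell by 0.99 in CK (limma adjusted p = 5.94e-06) and had a difference of -0.01 in KO (limma adjusted p = 0.916). C1qbp, a mostly mitochondrial protein that can bind hyaluronan, rose by 0.49 in KO (limma adjusted p = 0.000246). Its rise of 0.20 in CK (limma adjusted p = 0.0354) was lost under 10 alternatives, among them leaving out WT replicate 3 (adjusted p = 0.104) and the replicate block (adjusted p = 0.06).

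Among relatives of Hapln1 and Vcan, the brain link protein Hapln4 and the cartilage proteoglycan Acan were higher in KO. Acan, which binds hyaluronan as versican does, read 8.74, 8.70 and 9.66 in KO, 6.69, 6.67 and 6.56 in CK, and 6.44, 6.34 and 6.49 in WT. It was above the mark of dim signal in KO alone, so it entered the test through KO and is given without a p. Acan was 2.61 higher in KO than in WT, and 2.30 higher without KO replicate 3. Hapln4 rose by 1.41 in KO (limma adjusted p = 4.44e-08) and by 0.68 in CK (limma adjusted p = 9.83e-06). It averaged 8.74 in KO, 8.02 in CK and 7.34 in WT, where it was little above the mark of dim signal. The other 4 of the 6 genes were too dim to test. Acan is also one of 10 cartilage markers, of which 9 were called higher in KO than in WT and 0 lower, against 26.6% higher and 24.6% lower among all genes tested. That count includes Acan, Matn1 and Comp, which were above the mark of dim signal in KO alone, and of the other 7 markers 6 were called higher and 0 lower. Among those 6, Col9a1 averaged 7.20 in CK and 7.25 in WT, and Matn3 averaged 6.76 in CK and 7.29 in WT. With CK below the mark and WT little above it, both passed the filter through KO as well. These marker counts are a description. The summed level of the 10 ran from 15.15 to 15.37 on the KO arrays, against 13.82 to 13.86 on the WT arrays (log2 of the summed signal). In CK it ran from 11.58 to 11.67, and 4 were called lower than in WT. Much of the gap between CK and WT came from Cnmd, a cartilage membrane protein, which averaged 7.30 in CK and 13.33 in WT. Without Cnmd, a choice made after its values were seen, the sum ran from 14.40 to 14.74 in KO, 11.50 to 11.60 in CK and 12.01 to 12.18 in WT. Hapln1 went the other way in KO, and the part of cartilage-like cells in any of these values was not tested.

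Of the hyaluronan heavy chain and cross-linker genes, 3 of 7 were tested. Itih2, a heavy chain that Tnfaip6 can transfer, rose by 1.30 in KO (limma adjusted p = 2.51e-07) and fell by 0.89 in CK (limma adjusted p = 3.96e-06). Itih5 fell by 0.54 in KO (limma adjusted p = 0.000252) and rose by 0.35 in CK (limma adjusted p = 0.0035). Its KO arrays read 7.04, 7.06 and 7.14, all under the mark of dim signal. Ptx3, a pentraxin that binds Tnfaip6 and heavy chains in the hyaluronan matrix, fell by 1.60 in CK (limma adjusted p = 1.69e-07) and differed by 0.17 in KO (limma adjusted p = 0.164).

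Of the 4 tested genes for proteins that bind versican, 3 had the order of Vcan (CK, WT, KO). Fbln2, a fibulin of elastic tissues, read 10.12, 9.72 and 9.92 in KO, 13.44, 13.25 and 13.29 in CK, and 11.86, 11.82 and 11.72 in WT. It fell by 1.87 in KO (SE 0.10, limma adjusted p = 5.88e-08) and rose by 1.53 in CK (limma adjusted p = 2.43e-07). Fbln1, a related fibulin, read 9.92, 9.61 and 10.31 in KO, 12.98, 12.98 and 12.76 in CK, and 12.28 on all 3 WT arrays. These tied values give an SD of 0 for WT, which is not a usable spread but enters limma's estimate. Fbln1 fell by 2.34 in KO (limma adjusted p = 2.43e-07) and rose by 0.62 in CK (limma adjusted p = 0.00302). Tnc, the adhesion-modulating protein tenascin-C, fell by 1.01 in KO (limma adjusted p = 0.000203) and rose by 0.94 in CK (limma adjusted p = 0.000226). Fn1, fibronectin, differed from these: it rose in both, by 0.29 in KO (limma adjusted p = 0.000432) and by 0.49 in CK (limma adjusted p = 5.7e-06). Fn1 averaged 13.94 in KO, 14.15 in CK and 13.65 in WT, near 14.4, the highest value of any probe set. Whether differences are compressed at such signal was not tested. All 4 tested genes were higher in CK than in KO, by 3.41 for Fbln2, 2.96 for Fbln1, 1.95 for Tnc and 0.21 for Fn1 (limma adjusted p from 5.21e-10 to 0.00297). Fibroblast markers were lower in KO as well: 8 of 9 tested were called lower than in WT and 0 higher, against 24.6% lower and 26.6% higher among all genes tested. Thy1 fell most in KO, by 4.59 (limma adjusted p = 5.04e-10), and Pdgfra fell by 1.32 (limma adjusted p = 7.39e-08). Thy1 averaged 7.14 in KO, under the mark of dim signal, 11.69 in CK and 11.73 in WT. The KO and WT arrays overlapped for Col1a1 (-0.25, limma adjusted p = 0.047) and Lum (-0.68, limma adjusted p = 0.0255). In a sum of signals the brightest markers weigh most. The summed level of the fibroblast markers was 15.68 to 15.71 in KO, 15.99 to 16.07 in CK and 16.10 to 16.19 in WT. The part of these markers in the values above was not tested. Markers of other cell types were mixed. Of the smooth muscle markers tested, Cnn1 averaged 7.98 in KO, 9.79 in CK and 8.65 in WT, the order of Vcan. Acta2 averaged 13.30 in KO, 12.85 in CK and 12.98 in WT, and Tagln 10.58, 11.05 and 10.46 in turn. Of the adipocyte markers, Lpl averaged 6.64 in KO, 9.88 in CK and 7.29 in WT, and Pparg 10.22, 8.45 and 10.91 in turn. Fabp4 had the order of Lpl, while Plin1 and Adipoq were nearly level. Of 6 macrophage markers, 2 were bright enough to test: Cd68, a lysosomal protein, averaged 7.99 in KO, 8.59 in CK and 10.64 in WT, and lysozyme Lyz2 averaged 8.83 in KO, 7.59 in CK and 6.90 in WT. Both were called in each comparison, in opposite directions, while Ptprc and Adgre1 were dim on every array. Of 5 endothelial markers, only Tek averaged above the mark of dim signal, and in WT alone, with 6.80 in KO, 6.51 in CK and 8.77 in WT. Cdh5, untested, averaged 6.64 in KO, 6.59 in CK and 7.18 in WT, and every mutant array lay below every WT array. Pecam1, Kdr and Emcn were dim on every array. Of 6 epithelial markers, Krt8 and Krt18 were tested and called in no comparison, Cdh1, untested, averaged 7.51 in KO, 6.68 in CK and 6.77 in WT, and Epcam was dim on every array. The part of such cells in the values of the 8 genes was not tested.

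**Figure D3:**
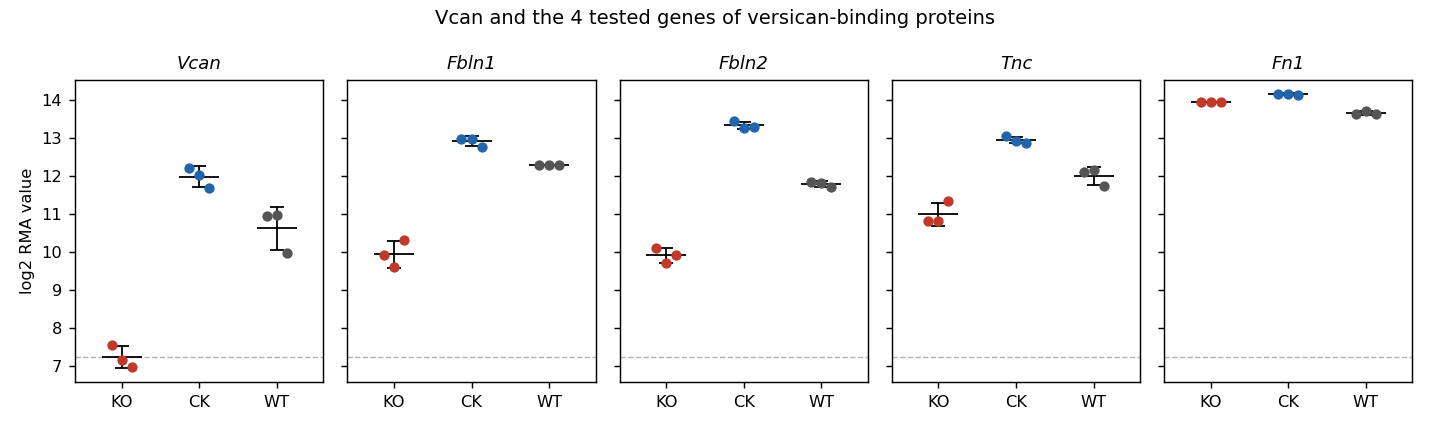
Log2 RMA values of Vcan and of the 4 tested genes for versican-binding proteins in KO, CK and WT cells. Points are arrays, lines and bars are the mean ± SD of 3 arrays, and the dashed line is at 7.24. Vcan, Fbln1, Fbln2 and Tnc are lowest in KO and highest in CK, while Fn1 is lowest in WT.

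Proteases that cut versican did not move as 1 group. Adamts4 read 8.20, 8.24 and 8.19 in KO, 10.40, 10.29 and 10.51 in CK, and 9.22 on average in WT, the order of Vcan. It fell by 1.02 in KO (limma adjusted p = 1.75e-07) and rose by 1.18 in CK (limma adjusted p = 5.01e-08). Adamts15 was 1.99 higher in CK than in KO (limma adjusted p = 2.21e-07). Its KO arrays read 7.01, 6.85 and 7.10, all under the mark of dim signal. Adamts5 rose by 1.91 in KO and by 1.08 in CK (limma adjusted p = 2.17e-09 and 1.4e-07), and Adamts1 fell by 0.99 in KO and fell by 1.51 in CK (limma adjusted p = 6.53e-07 and 2.28e-08). Of 5 tested genes, 1 rose and 4 fell in KO, and 3 rose and 1 fell in CK.

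Of the enzymes that build chondroitin sulfate chains, which versican carries, 15 were tested. In CK versus KO, 0 of the 15 were higher and 8 were lower, with a median of -0.26, against 29.5% higher and 32.7% lower among all genes. Dse, which turns chondroitin into dermatan sulfate, was 1.11 lower in CK than in KO, Chpf 0.90 lower and Chst12 0.83 lower (limma adjusted p = 1.45e-08, 3.08e-07 and 8.66e-07). Dse read 11.62 on every WT array, a tie that enters limma's estimate of the spread. Against WT, 7 of the 15 rose and 0 fell in KO, where 26.6% of all genes tested were higher and 24.6% lower. In CK, 4 of the 15 rose and 7 fell, against 30.7% higher and 32.1% lower among all genes tested. Csgalnact1, which starts chondroitin chains on the linker, rose in both, by 2.07 in KO and 2.20 in CK (limma adjusted p = 2.3e-06 and 1.08e-06). Xylt1, which adds the linker's first sugar, also rose in both, by 1.11 in KO and 1.11 in CK (limma adjusted p = 8.81e-06 and 6.35e-06).

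Of Cd44's partners and shedding proteases, 0 rose and 4 fell in KO among 6 tested, and 3 rose and 2 fell in CK. Mmp14, a membrane protease that sheds Cd44, fell by 1.35 in KO (limma adjusted p = 1.3e-07) and rose by 0.44 in CK (limma adjusted p = 0.000524), the order of Cd44. Msn, which ties Cd44 to actin, was 0.90 higher in CK than in KO (limma adjusted p = 2.16e-07) and rose by 0.62 in CK versus WT (limma adjusted p = 4.39e-06). Ezr, its relative, fell by 0.66 in KO and fell by 0.82 in CK (limma adjusted p = 2.53e-06 and 3.42e-07). Ezr was also lower in CK than in KO by 0.17 (limma adjusted p = 0.0209), a call lost without KO replicate 1 or 3 or CK replicate 2 or 3 (adjusted p = 0.056 to 0.0695).

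**Figure D4:**
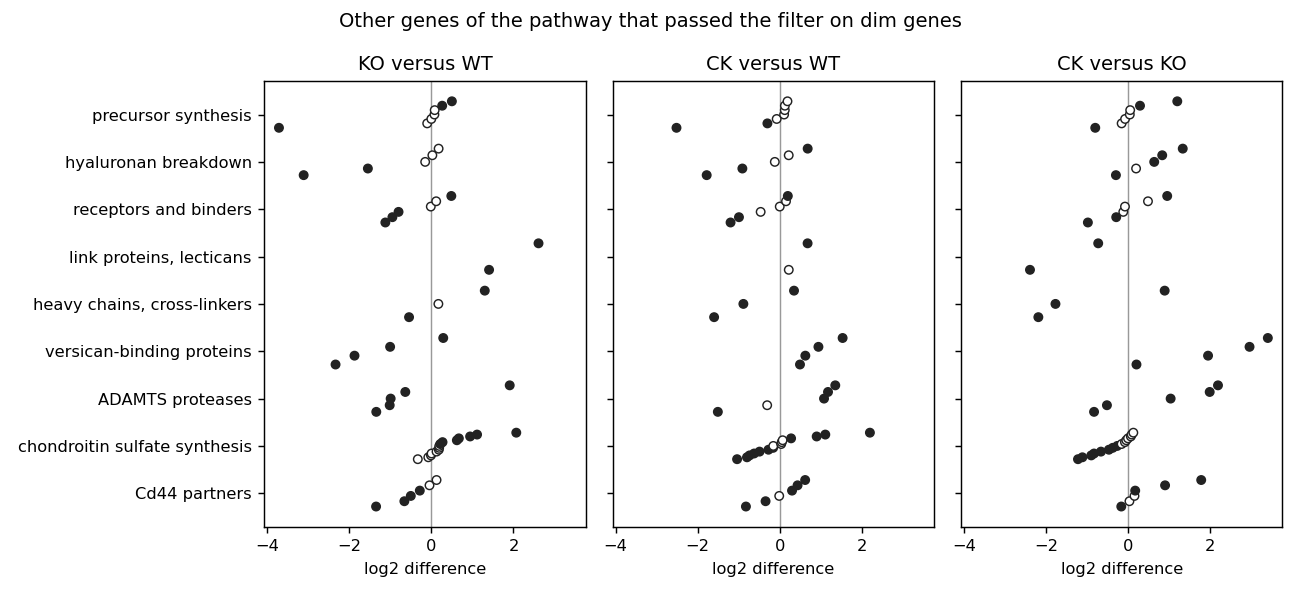
Log2 differences of the 53 tested genes of the pathway other than the 8, by group, in the 3 comparisons. Each point is a gene, ordered by size within its group, and filled points passed limma's test at an adjusted p under 0.05. Versican-binding genes lie right of 0 in CK versus WT and CK versus KO, and no chondroitin sulfate gene is filled right of 0 in CK versus KO.

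Vcan and Hapln1 are neighbours on chromosome 13, with Edil3 on the far side of Hapln1 and Xrcc4 on the far side of Vcan among genes with a probe set. Xrcc4, a DNA repair factor, averaged 9.24 in KO, 9.29 in CK and 9.22 in WT and was called in no comparison (limma adjusted p = 0.856, 0.374 and 0.503). Edil3, a secreted integrin-binding protein, fell by 0.46 in KO and fell by 0.99 in CK (limma adjusted p = 0.000248 and 6.03e-07). Edil3 thus had the order of Hapln1 (WT, KO, CK), while Vcan, beside it, had another. The 10 tested neighbours of the 8 genes, of 14 in all, gave 1 higher and 4 lower in KO versus WT, and 4 higher and 3 lower in CK versus WT. Among all genes tested, 26.6% were called higher and 24.6% lower in KO versus WT, and 30.7% and 32.1% in CK versus WT. Nothing is read from the neighbour counts. Of the calls of neighbours, that of Mir125a in KO was lost without KO replicate 2 (adjusted p = 0.0533), and that of Rif1 in CK without CK replicate 1 or 2 or WT replicate 2 (adjusted p = 0.0593 to 0.0661). Sntb1, a neighbour of Has2 at a distance of 758325 bases, fell by 0.67 in KO and rose by 0.76 in CK (limma adjusted p = 0.000322 and 9.2e-05). Pdhx, a neighbour of Cd44 at a distance of 119386 bases, fell by 0.31 in KO (limma adjusted p = 0.00273). It differed by -0.02 in CK (limma adjusted p = 0.814). Both are neighbours only among genes with a probe set.

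**Figure D5:**
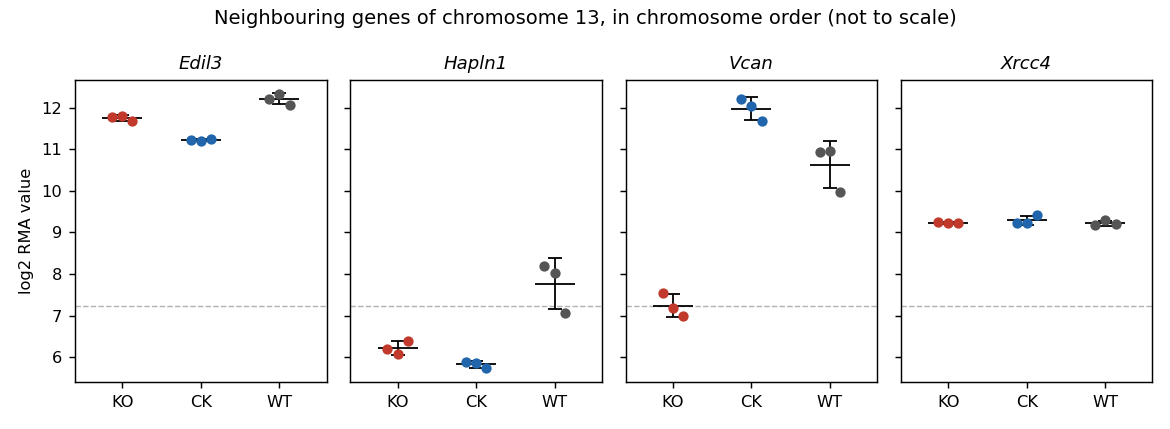
Log2 RMA values of 4 neighbouring genes of mouse chromosome 13 in KO, CK and WT cells, in chromosome order. Points are arrays, lines and bars are the mean ± SD of 3 arrays, and the dashed line is at 7.24. Edil3 and Hapln1 are highest in WT and lowest in CK, Vcan is highest in CK and lowest in KO, and Xrcc4 is nearly level.

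Genes with patterns most like 5 of the genes, those whose genotype means span at least 1 (log2), were sought among 11534 tested and named genes by Pearson correlation over the 9 arrays. These values describe arrays that fall into 3 genotypes, so high correlations are common: 258 genes had r above 0.95 with Has2, 285 with Vcan, 335 with Cd44, 178 with Tnfaip6 and 66 with Hapln1. Closest to Has2 were Epha1 (r = 0.997), Camkk2 (0.995) and Ezr (0.994). Epha1, an ephrin receptor kinase, averaged 7.73 in KO, 7.33 in CK and 9.52 in WT. Closest to Vcan were Frmd4a (0.994), Niban1 (0.993) and Apobec1 (0.993), and Niban1 averaged 7.52 in KO, 11.22 in CK and 10.01 in WT. Closest to Cd44 were Slc2a6 (1.000 after rounding), Basp1 (0.998) and the growth factor Pdgfd (0.998), which averaged 6.81 in KO, 10.60 in CK and 9.40 in WT. Closest to Tnfaip6 were Pcdh19 (0.987), Laptm4b (0.985) and Denn2b (0.985). Closest to Hapln1 were Slc16a9 (0.993), Traf5 (0.987) and the fibril-associated collagen Col14a1 (0.987), whose WT arrays, like those of Hapln1, spread widely (SD 0.79).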

How the data were processed

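Expression was measured on 9 Affymetrix arrays from quiescent MEFs, 3 each of KO, CK and WT. Per the submitters' processing notes, the authors used RMA and the affy package; versions, annotation and filters are not given in the sources used here. The deposited table of 34760 probe sets is taken as log2 values, since RMA gives that scale, and its values had lost their decimal mark. Digit strings starting with 1 were read as 10 or more and others as below 10, giving log2 values from 4.28 to 14.4. In 2242 pairs of genotype and probe set on both sides of 10 the median range was 0.263 so read and 8.92 otherwise. Quantile normalization within RMA hides changes in total RNA per cell.

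Names come from the platform annotation, updated by gene identifier through a RefSeq table of GRCm38.p6, used for names, chromosomes and gene order. 21640 probe sets had 1 symbol, 1321 several and 11799 none. Each gene took its brightest probe set with 1 symbol. Genes whose mean over all arrays reached 7.24, the 40th percentile, numbered 11962 and were tested with limma 3.58.1 in R 4.3.3, 1 coefficient per genotype over all 9 arrays, and a call needed an adjusted p under 0.05 (Benjamini-Hochberg). SE of differences of the 8 genes come from their own arrays, and those beside an adjusted p from limma. The fit was tested on simulated data. The number of arrays limits the precision.

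The 8 genes, the pathway lists, the markers and the tests were chosen with earlier results of these data known. Named genes are the 8, up to 3 called genes with the smallest p per list and comparison, the 3 most correlated genes per gene spanning at least 1, chromosome neighbours and Cdkn1b; markers are named where they touch a result. Ugdh was added after its values were seen, as was the second comparison of a named gene. Alternatives covered filters, probe sets, scaling, variance model, arrays fitted, threshold and the replicate number as a block. Replicate numbers were not taken to pair the arrays, since not every same-numbered pair deviated together.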

Additional observations from a re-analysis of the deposited data

How the results depend on the processing

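All 231 counts and medians under the alternatives stayed within 1.5 times the reported count or within the spread between arrays. Of 240 differences of the 8 genes, 238 moved by less than 1 SD; the other 2 were Hyal2 in CK versus WT, at 0.04 with median centring and 0.06 with a further quantile normalization, against 0.02. No difference whose arrays did not overlap changed sign. Leaving out each array gave 12 to 16 higher and 18 to 20 lower pathway genes in KO versus WT, 16 to 20 and 17 to 19 in CK versus WT, and 16 to 18 and 17 to 19 in CK versus KO. It gave 6 to 8 genes without overlap in KO versus WT, 5 to 6 in CK versus WT and 5 to 7 in CK versus KO. Leaving out KO replicate 3 and WT replicate 3 together, chosen after seeing the data, gave 8, 5 and 7, and 14 higher and 20 lower, 16 and 19, and 17 and 18 pathway genes. Groups with fewer arrays overlap less easily, so counts without overlap can rise when an array is left out. Shares over all genes are not given for these settings, and nothing is read from those counts. With no filter, 18 and 21, 20 and 21, and 19 and 20 pathway genes were higher and lower in the 3 comparisons. With the replicate block they were 16 and 18, 17 and 17, and 16 and 19; deviations of same-numbered arrays correlated from 0.05 to 0.361 in the 3 KO and WT pairs and from -0.303 to 0.052 in the 6 pairs with CK, so the numbers were not taken to pair the arrays. Of 74 pathway calls, those with up to the 3 smallest p per list and comparison, 70 held under each alternative that tested them. The other 4 were Gnpnat1 and Ezr in CK versus KO, Pgm3 in KO versus WT and C1qbp in CK versus WT. Calls given above that rank lower, such as Xylt1 and Fn1 in KO versus WT and Fbln1 in CK versus WT, are not among the 74. Dim signal limits Has1, Has3, Hapln1 in the mutants, and Vcan and Tnfaip6 in KO.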

Other observations

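The probe sets shared by Hyal1, a lysosomal hyaluronidase, and Naa80, an actin acetyltransferase, were lower in KO than in CK and WT on every array. The first read 8.83, 9.09 and 8.78 in KO, 9.67, 9.58 and 9.97 in CK, and 9.95, 9.86 and 9.88 in WT. The other averaged 9.31 ± 0.03 in KO, 9.61 ± 0.09 in CK and 9.79 ± 0.08 in WT (mean log2 value ± SD of 3 arrays). The CK and WT arrays overlapped on both. These values cannot be assigned to either gene, and no test was made.

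Chsy3, a chondroitin synthase, was too dim on average to be tested but averaged 6.85 in KO, 7.03 in CK and 7.81 in WT, with no overlap of either mutant with WT. Adamts20, a further versican-cutting protease, averaged 6.68 in KO, 7.13 in CK and 6.70 in WT, also without a test, and the CK arrays lay above the others. Both were chosen after their values were seen.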
